A study of Mus musculus with 6 samples.

Results

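The genes of retinoic acid synthesis and response were examined in tumor-associated macrophages (TAMs) from WT and C5aR-/- mice. The 9 genes were Rdh10, Aldh1a1, Aldh1a2 and Aldh1a3 (enzymes), Crabp2 (a carrier) and Rara, Rarb, Rarg and Rxra (receptors). They were chosen by symbol from the 56980 genes of the expression table, for their roles in the pathway and with earlier results of these data known, and all 9 were listed. Genes were tested where 3 or more of the 6 libraries reached 1 TPM, which 14776 genes did. Of the 9 genes, 8 did and Crabp2 did not.

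ID8, a mouse ovarian surface epithelial cancer line, was injected into the peritoneal cavity of female C57BL/6 mice aged 6 to 8 weeks that were either WT or knocked out for C5aR, the receptor of the complement fragment C5a, in every cell type. Tumors were taken 2 months later, and live cells positive for CD45, CD11b and F4/80 and negative for Ly6G were sorted from them. Their poly(A) RNA was sequenced in 3 libraries of WT TAMs and 3 of C5aR-/- TAMs, all from tumor-bearing mice, and the labels give no other treatment. The comparison asks which transcripts differ in TAMs when the host lacks C5aR. Because the knockout was not restricted to macrophages, loss of C5aR in the TAMs and loss in other host cells cannot be told apart. The labels do not say whether each library came from a single mouse, so the p-values measure the spread between these libraries. The paper's legends give more mice per group for this sequencing than the 3 libraries per group held here.

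Retinoic acid is made from vitamin A in a pair of oxidation steps. Retinol is first converted to retinaldehyde, for which RDH10 is a major enzyme in embryonic and adult tissues, and the retinaldehyde dehydrogenases ALDH1A1, ALDH1A2 and ALDH1A3 then form retinoic acid irreversibly. CRABP2 carries retinoic acid into the nucleus, where heterodimers of a retinoic acid receptor (RAR, encoded by Rara, Rarb and Rarg) and a retinoid X receptor (RXR) bind direct repeats of a hexamer in DNA and regulate nearby genes. CYP26 enzymes degrade the ligand. In the peritoneal cavity, retinoic acid is known for inducing GATA6, the transcription factor that gives resident peritoneal macrophages their identity, and WT1-positive mesothelial and stromal cells of the omentum are known to express retinaldehyde dehydrogenases.

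Promoters bear on the readouts below because Rarb and Cyp26a1 are textbook direct targets of the receptors, and because Aldh1a1 has a close paralog, Aldh1a7, which was also lower in C5aR-/- TAMs. The sequences are from RefSeq on GRCm38.p6, the 250 bases before each start site. Of the 9 genes, 6 had an entry, with 12 windows that also took in 50 bases after the start. A retinoic acid response element was searched for on both strands as 2 half-sites in direct repeat with 1, 2 or 5 bases between them. A half-site was the consensus AGGTCA, or AGTTCA with an inner base changed, or GGGTCA with the outer base changed, or GGTTCA with both changes. The repeat with 5 bases between was found in 0.0974% of 32851 promoter windows, that with 2 in 0.268% and that with 1 in 0.222%. Among the 12 windows, 1 held a match, that of Rarb, at -53 to -37 from the start site. Cyp26a1 held a match on the opposite strand at -32 to -16. Both had 5 bases between the half-sites, which are in capitals below, printed on the strand of the gene, so that those of Cyp26a1 read TGAACT. The start site of the Rarb window lies within the annotated span of the gene. No match was found in the window of Aldh1a2, shown with them as the start of an enzyme gene. The search describes these letters, and binding at them was not measured in these data.
Rarb (chr14:16575477-16575726, minus strand): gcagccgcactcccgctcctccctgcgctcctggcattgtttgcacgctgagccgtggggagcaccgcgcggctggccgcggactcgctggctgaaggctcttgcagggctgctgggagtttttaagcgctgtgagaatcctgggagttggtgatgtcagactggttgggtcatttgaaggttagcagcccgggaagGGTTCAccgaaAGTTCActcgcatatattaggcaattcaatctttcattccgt
Cyp26a1 (chr19:37697558-37697807, plus strand): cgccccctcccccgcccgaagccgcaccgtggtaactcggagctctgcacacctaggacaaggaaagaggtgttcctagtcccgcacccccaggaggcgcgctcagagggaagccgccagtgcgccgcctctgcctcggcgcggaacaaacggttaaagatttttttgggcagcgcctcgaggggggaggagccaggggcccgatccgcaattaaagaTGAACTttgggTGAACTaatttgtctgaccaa
Aldh1a2 (chr9:71215539-71215788, plus strand): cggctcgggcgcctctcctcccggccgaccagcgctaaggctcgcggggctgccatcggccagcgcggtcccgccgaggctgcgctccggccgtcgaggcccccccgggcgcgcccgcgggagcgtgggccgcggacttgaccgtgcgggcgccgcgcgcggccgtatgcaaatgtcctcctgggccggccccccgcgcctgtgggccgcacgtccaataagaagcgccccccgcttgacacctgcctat

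The windows before the more downstream start site of Aldh1a1 and before that of Aldh1a7 are shown to compare the paralogs. The capitals mark an identical run of 65 bases at -94 to -30, and 94 of the last 100 bases before the start were the same in both genes.
Aldh1a1 (chr19:20601718-20601967, plus strand): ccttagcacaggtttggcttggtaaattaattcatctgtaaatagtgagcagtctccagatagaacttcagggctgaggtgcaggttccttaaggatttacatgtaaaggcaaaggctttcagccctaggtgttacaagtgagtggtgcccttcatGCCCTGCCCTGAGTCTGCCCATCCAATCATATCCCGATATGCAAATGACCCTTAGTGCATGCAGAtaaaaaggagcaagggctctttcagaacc
Aldh1a7 (chr19:20727557-20727806, minus strand): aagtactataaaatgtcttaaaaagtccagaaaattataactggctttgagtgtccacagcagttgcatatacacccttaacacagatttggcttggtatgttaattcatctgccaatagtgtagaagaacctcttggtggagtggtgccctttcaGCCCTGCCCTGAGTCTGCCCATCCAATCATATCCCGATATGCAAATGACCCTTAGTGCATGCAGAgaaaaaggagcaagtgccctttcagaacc

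The values were TPM, transcript abundances scaled for gene length and library total that keep no record of sequencing depth. The depth of each library is therefore unknown, and between 14393 and 15015 genes reached a TPM of 1 in each. C5ar1, the targeted gene, was at 86.51, 37.32 and 16.18 TPM in the WT libraries and at 0.38, 0.11 and 0.05 TPM in the C5aR-/- libraries, without overlap and in the direction of the labels. All 10 macrophage markers were detected in every library, but their summed level ranged from 1786 to 7211 TPM in WT and from 1569 to 6498 TPM in C5aR-/- TAMs. Adgre1, which encodes the F4/80 used for sorting, ranged from 25.35 to 114.35 TPM. Transcripts of other cell types were present in all libraries of both groups, among them the mesothelial gene Wt1 at 331.22 to 451.34 TPM and the epithelial keratin gene Krt8 at 455.26 to 757.50 TPM. Transcripts that define other cell types were thus measured beside those of macrophages, and in bulk RNA fewer cells of a type and less RNA per cell cannot be told apart. Whether mesothelial and epithelial transcripts came from host cells or from the injected ID8 tumor cells was not tested.

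The 4 synthesis enzymes were all lower in C5aR-/- TAMs, with the highest C5aR-/- library below the lowest WT library for each, whereas the 4 receptors overlapped between the groups. Mean TPM was 4.97 times higher in WT for Aldh1a1, 4.83 times for Aldh1a2, 9.49 times for Aldh1a3 and 2.68 times for Rdh10. By the stricter threshold, a fold change of 2 or more with an adjusted p under 0.05, 0 of the 14776 genes were called (0.0%) by limma on log2(TPM + 1) with Benjamini-Hochberg adjustment, and the smallest adjusted p of any gene was 0.0666. By the looser threshold, which takes the unadjusted p and the same fold change, 733 genes (4.96%) were called, and 2133 genes (14.4%) fell under 0.05 unadjusted when the fold change was ignored. Of the 733, 314 were higher in C5aR-/- TAMs (2.13%) and 419 lower (2.84%). Of the 8 tested genes of retinoic acid synthesis and response, 4 passed the looser threshold, all of them enzymes and all lower. Aldh1a3, 1 of the 4, reached 1 TPM only in the WT libraries, so the filter let it be tested only as lower. It is counted in the shares and the median below. Groups did not overlap for 21.3% of all tested genes, and for 12.5% with C5aR-/- TAMs lower, against 4 of these 8. The median log2 difference, C5aR-/- minus WT, was -2.07 over the 4 enzymes and 0.28 over the 4 receptors, beside -0.05 over all genes tested.

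**Figure D1:**
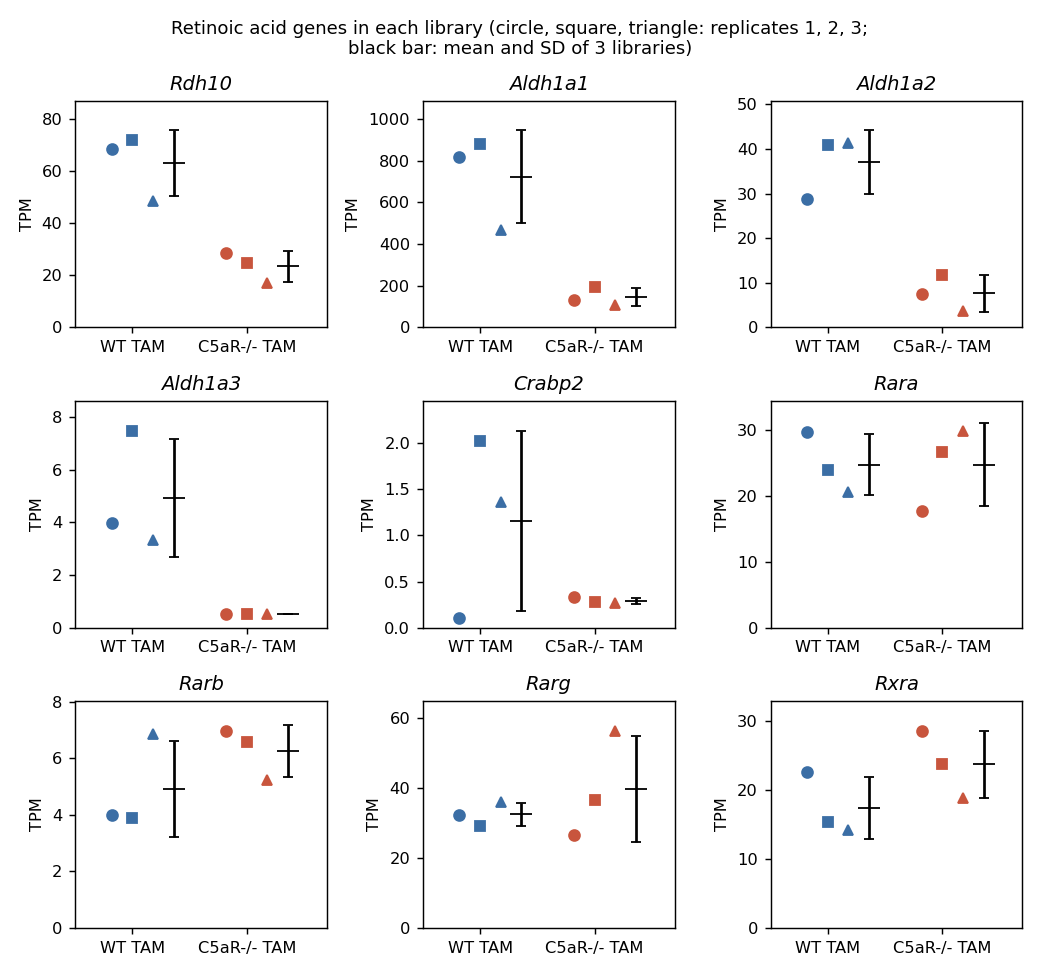
TPM (y axis, linear and starting at 0) of the 9 genes in the WT and C5aR-/- TAM libraries, 1 symbol per library, with the mean and SD of 3 libraries as a black bar. Rdh10, Aldh1a1, Aldh1a2 and Aldh1a3 show no overlap between the groups, and Crabp2 and the 4 receptors overlap.

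Rdh10 (chr1:16105774-16133734, plus strand, GRCm38), which encodes the retinol dehydrogenase of the first step, was at 68.64, 72.13 and 48.62 TPM in WT TAMs and at 28.77, 24.68 and 17.12 TPM in C5aR-/- TAMs. Every C5aR-/- library was below every WT library, the nearest pair differing by 1.69 times. The means were 63.1 ± 12.7 TPM (SD, n = 3) and 23.5 ± 5.91 TPM (SD, n = 3). On log2(TPM + 1) the difference was -1.40 (SE 0.24, 95% interval -1.97 to -0.82), with a limma adjusted p of 0.0948. It stood lower than all but 1.87% of tested genes.

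Aldh1a1 (chr19:20492715-20643465, plus strand), the retinaldehyde dehydrogenase with the highest level here, was at 818.01, 882.72 and 468.23 TPM in WT TAMs and at 132.79, 193.99 and 109.93 TPM in C5aR-/- TAMs. The groups were well separated, with the lowest WT library 2.41 times the highest C5aR-/- library. Mean levels were 723 ± 223 TPM (SD, n = 3) in WT and 146 ± 43.5 TPM (SD, n = 3) in C5aR-/- TAMs. By mean TPM over the 6 libraries the gene ranked 305 of 14776. The log2 difference was -2.29 (SE 0.31, 95% interval -3.03 to -1.55), with a limma adjusted p of 0.0666, the smallest that any gene, C5ar1 included, reached.

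Aldh1a2 (chr9:71215789-71296243, plus strand), which encodes the main retinoic acid-forming enzyme of the early embryo and of mesothelium, was far less abundant. It was at 28.88, 40.92 and 41.38 TPM in WT and 7.56, 11.85 and 3.60 TPM in C5aR-/- TAMs, again without overlap, for a log2 difference of -2.24 (SE 0.38, limma adjusted p 0.0932). Aldh1a3 (chr7:66390890-66427517, minus strand), an isoform known from epithelia and the eye, was the least abundant. Its values were 3.99, 7.49 and 3.32 TPM in WT TAMs and 0.53, 0.51 and 0.52 TPM in C5aR-/- TAMs. The C5aR-/- libraries were close to each other and below the filter of 1 TPM, which the gene met through the WT libraries alone. The log2 difference of -1.90 (SE 0.30, limma adjusted p 0.0892), which includes a pseudocount of 1, therefore understates the ratio of the means.

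Leaving out C5aR-/- library 1 moved some of these results past the adjusted threshold. The limma adjusted p was then 0.0368 for Aldh1a1 and 0.0341 for Rdh10, while 356 of all genes passed. Without any other single library, none of the 4 enzymes passed it. With 3 libraries against 3, the two-sided exact permutation test cannot go below p = 0.1, the value each of the 4 enzymes reached.

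Added together, the TPM of Aldh1a1, Aldh1a2 and Aldh1a3 came to 850.88, 931.13 and 512.93 in WT TAMs and to 140.88, 206.35 and 114.05 in C5aR-/- TAMs. The WT mean of the sum was 4.98 times the C5aR-/- mean. Its makeup differed little, since Aldh1a1 gave between 91.3% and 96.4% of it in every library, Aldh1a2 between 3.16% and 8.07%, and Aldh1a3 under 1% (0.247% to 0.804%). The largest Aldh1a2 share and the smallest Aldh1a1 share were both in WT library 3, whose Aldh1a1 and Rdh10 levels were the lowest of the WT group.

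Crabp2 (chr3:87948666-87953376, plus strand), which encodes the carrier that delivers retinoic acid to RARs, was close to the floor of the table. It was at 0.10, 2.02 and 1.36 TPM in WT and at 0.33, 0.28 and 0.27 TPM in C5aR-/- TAMs. The groups overlapped because WT library 1 held the lowest value of all 6, and the gene was not tested.

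Among the receptors, Rarg (chr15:102234938-102257517, minus strand) had the highest mean level, with 32.23, 29.04 and 35.82 TPM in WT TAMs and 26.44, 36.48 and 56.24 TPM in C5aR-/- TAMs. The C5aR-/- libraries held both the lowest and the highest value. The log2 difference was 0.23 (95% interval -0.42 to 0.88, limma adjusted p 0.742). Rara (chr11:98927818-98974942, plus strand), the broadly expressed RAR of myeloid cells, was at 29.59, 23.93 and 20.48 TPM in WT and 17.64, 26.60 and 29.85 TPM in C5aR-/- TAMs. Both means were 24.7 TPM, and the log2 difference of -0.02 (95% interval -0.59 to 0.56, limma adjusted p 0.983) took the opposite sign under other scalings.

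Rarb (chr14:16430839-16819156, minus strand), the RAR gene that retinoic acid is known to induce, was the least abundant of the 3 RAR genes. It was at 4.01, 3.88 and 6.86 TPM in WT TAMs and at 6.98, 6.57 and 5.24 TPM in C5aR-/- TAMs. The mean was 1.27 times higher in C5aR-/- TAMs, with WT library 3 inside the C5aR-/- range, and the log2 difference of 0.32 (95% interval -0.29 to 0.94) had a limma adjusted p of 0.608. Rxra (chr2:27676440-27762957, plus strand), the partner with which RARs bind DNA, was at 22.57, 15.34 and 14.19 TPM in WT and 28.56, 23.79 and 18.84 TPM in C5aR-/- TAMs. Its log2 difference was 0.44 (95% interval -0.13 to 1.0, limma adjusted p 0.446). The 95% intervals of all 4 receptors included 0 and reached up to between 0.56 and 1.0 on the log2 scale, so the data do not show that the receptors were equal in both groups.

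In WT TAMs the order of mean levels was Rarg, Rara, Rxra and Rarb, and in C5aR-/- TAMs Rarg, Rara, Rxra and Rarb again. Rarg and Rara overlapped in both groups, as did Rara and Rxra, whereas Rarb was below the other receptors in every library. Of the RAR transcripts, Rarg made up 49.0% to 61.6%, Rara 32.4% to 44.9% and Rarb 5.74% to 13.7%. The 4 receptors summed to 79.3 ± 8.28 TPM (SD, n = 3) in WT and 94.4 ± 15.3 TPM (SD, n = 3) in C5aR-/- TAMs.

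**Figure D2:**
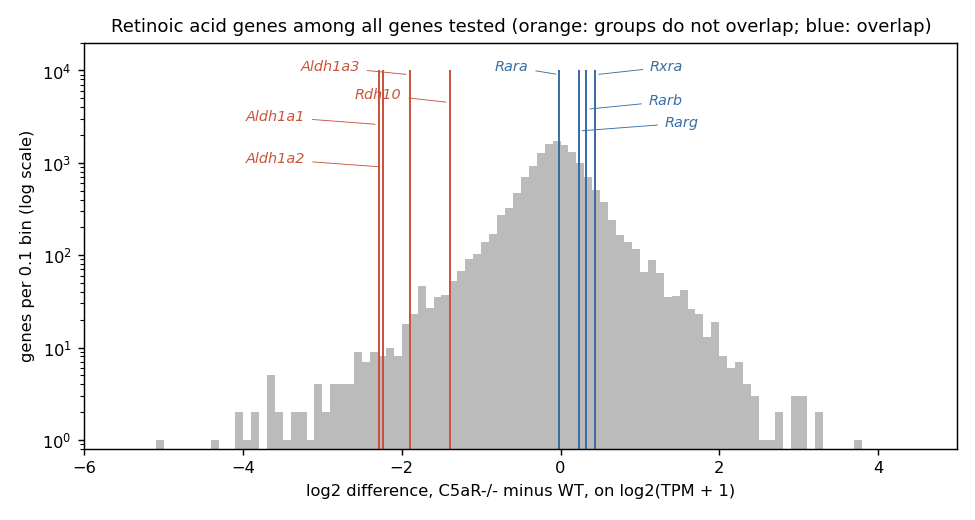
Histogram of the log2 difference, C5aR-/- minus WT on log2(TPM + 1), of all 14776 genes tested (x axis) against the number of genes per bin (y axis, log scale), with a vertical line at each of the 8 tested retinoic acid genes. The lines of Aldh1a1, Aldh1a2, Aldh1a3 and Rdh10 stand on the lower side, between -2.29 and -1.40, and those of the receptors between -0.02 and 0.44.

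Reads that could also belong to another gene might affect some of these levels, which was not tested. The coding sequences of Aldh1a1 and Aldh1a7 were 92.0% identical, and 50 of the 1432 windows of 75 bases in Aldh1a7 were found exactly in Aldh1a1. These windows are shorter than the paired reads that the paper's methods describe, so they do not show that any read was shared. Both values are uncertain to the extent that reads were shared and split. Other pairs of the Aldh1a genes were 69.7% to 71.8% identical and the RAR pairs 74.0% to 77.9%, with no shared window. Rarb overlaps Top2b and the antisense gene Gm48162 on the opposite strand, and Aldh1a1 overlaps C730002L08Rik and Gm6684 on the opposite strand. Whether strand was used in counting is not given in the sources used here.

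Beyond these 9 genes, 65 genes of the retinoid pathway and its readouts were listed, of which 46 were tested, 26 of them with a positive and 20 with a negative log2 difference (44.5% and 55.5% of all genes tested) and a median of 0.06. None passed the adjusted threshold. At the unadjusted threshold 2 were higher in C5aR-/- TAMs (Cyp26b1 and Pparg, beside 2.13% of all genes) and 2 lower (Aldh1a7 and Adh7, beside 2.84%). The groups did not overlap for 6 higher and 6 lower genes, beside 8.84% and 12.5% of all genes tested. The 12 of 46 whose groups did not overlap were thus near the 21.3% of all genes. These counts include Adh7 and Dhrs9, which reached 1 TPM only in the WT libraries, and Thrb, which reached it only in the C5aR-/- libraries. They also include Cyp26b1, which met the filter because all C5aR-/- libraries reached 1 TPM. For these genes the filter favored the direction that was found. The call of Adh7 was lost with quantile normalization (log2 difference -0.91) and without WT library 3 or C5aR-/- library 3, that of Cyp26b1 without library 2 of either group, and without C5aR-/- library 1 the number called was 8.

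Of 10 genes for uptake, transport and storage of retinol and its carotenoid precursors, 5 were tested and none was called or separated the groups. Stra6, named here after its values were seen, encodes the cell surface receptor for retinol bound to its plasma carrier. It was at 79.46, 101.30 and 139.64 TPM in WT and 78.46, 184.59 and 130.07 TPM in C5aR-/- TAMs, with each group holding values above and below the other. Lrat, which encodes the enzyme that esterifies retinol for storage, was listed at 0 in all 6 libraries.

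Of 14 genes that interconvert retinol and retinaldehyde, 10 were tested and 2 separated the groups (beside 21.3% of all genes), both lower in C5aR-/- TAMs. Adh7, an alcohol dehydrogenase that oxidizes retinol, was at 2.00, 2.33 and 3.43 TPM in WT and 0.64, 0.96 and 0.53 TPM in C5aR-/- TAMs, a log2 difference of -1.06 with a limma adjusted p of 0.166. Dhrs9, a short-chain dehydrogenase of the same step, was at 1.07, 1.63 and 1.41 TPM against 0.36, 0.36 and 0.52 TPM (log2 difference -0.74, limma adjusted p 0.241). Both were scarce beside Rdh10 and reached 1 TPM only in the WT libraries, so the filter let them be tested only as lower. Dhrs3, which works in the opposite direction and returns retinaldehyde to retinol, was at 83.23, 58.25 and 112.59 TPM in WT and 129.41, 124.65 and 86.55 TPM in C5aR-/- TAMs. Its groups overlapped, and it too was named after its values were seen.

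Aldh1a7, the paralog of Aldh1a1 whose promoter is printed above, was at 41.26, 49.67 and 20.84 TPM in WT TAMs and at 4.12, 9.53 and 5.85 TPM in C5aR-/- TAMs. It was lower in every C5aR-/- library, and its log2 difference of -2.33 (SE 0.39, limma adjusted p 0.0932) was of the size of that of Aldh1a1. WT library 3 was the lowest of the WT group for both genes.

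The enzymes that degrade retinoic acid were near the floor of the table. Cyp26b1 was at 0.57, 0.54 and 1.16 TPM in WT and 2.23, 3.55 and 2.38 TPM in C5aR-/- TAMs, higher in each C5aR-/- library, with a log2 difference of 1.08 (SE 0.27) and a limma adjusted p of 0.169. In WT it reached 1 TPM only in library 3, so it was tested only because all C5aR-/- libraries reached 1 TPM. Cyp26a1, named after its values were seen because its promoter is printed above, was at 1.61, 1.60 and 0.31 TPM in WT and 1.35, 0.99 and 0.69 TPM in C5aR-/- TAMs. Its groups overlapped fully, the C5aR-/- values lying within the WT range.

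The 10 corepressors and coactivators of nuclear receptors were all tested, with a median log2 difference of 0.01. Nrip1, a ligand-dependent corepressor, was at 12.22, 9.79 and 10.94 TPM in WT and 13.06, 12.64 and 12.81 TPM in C5aR-/- TAMs, without overlap (log2 difference 0.21, limma adjusted p 0.588). Med1, the Mediator subunit that binds liganded receptors, lay the other way, at 20.44, 22.64 and 21.59 TPM against 16.27, 14.21 and 17.79 TPM (log2 difference -0.40, limma adjusted p 0.303).

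Of 8 other receptors that pair with RXR, 7 were tested and 6 had a positive log2 difference (beside 44.5% of all genes), with a median of 0.42. The groups did not overlap for 3 higher and 1 lower gene (beside 8.84% and 12.5%). Vdr, the vitamin D receptor, was at 26.36, 27.07 and 32.17 TPM in WT and 60.93, 43.14 and 51.13 TPM in C5aR-/- TAMs, without overlap (log2 difference 0.83, limma adjusted p 0.129). Pparg, a fatty acid sensor of macrophages and fat cells, was at 2.02, 2.54 and 1.18 TPM against 5.0, 4.81 and 13.41 TPM (log2 difference 1.48, SE 0.41, limma adjusted p 0.207). C5aR-/- library 3 stood well above the others for this gene. Thra, a thyroid hormone receptor gene, was lower in C5aR-/- TAMs, at 50.56, 54.97 and 43.84 TPM against 68.93, 87.46 and 78.26 TPM in WT (log2 difference -0.64, limma adjusted p 0.157). Thrb, the other thyroid hormone receptor gene, was scarce and separated the groups in the other direction (log2 difference 0.69). It reached 1 TPM only in the C5aR-/- libraries, so the filter let it be tested only as higher.

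Of 14 genes described as retinoic acid responsive, 9 were tested, 3 with a positive and 6 with a negative log2 difference (44.5% and 55.5% of all genes), and a median of -0.16. Meis2, a homeobox gene, was the only gene of these whose groups did not overlap, beside 21.3% of all genes in either direction and 12.5% lower. It was at 18.52, 21.40 and 18.48 TPM in WT and 13.51, 15.09 and 13.32 TPM in C5aR-/- TAMs (log2 difference -0.45, limma adjusted p 0.263). The genes best known as targets in macrophages overlapped between the groups and are named after their values were seen. Gata6 was at 116.16, 91.11 and 107.37 TPM in WT and 89.10, 104.35 and 86.76 TPM in C5aR-/- TAMs. Tgm2, a transglutaminase gene, was at 259.75, 230.07 and 363.41 TPM in WT and 317.32, 349.46 and 256.80 TPM in C5aR-/- TAMs. Across the WT libraries Gata6 did not vary as the macrophage gene Adgre1 did (114.35, 45.75 and 25.35 TPM). Which cells the Gata6 and Tgm2 transcripts came from was not tested, so their overlap does not show unchanged levels in macrophages.

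**Figure D3:**
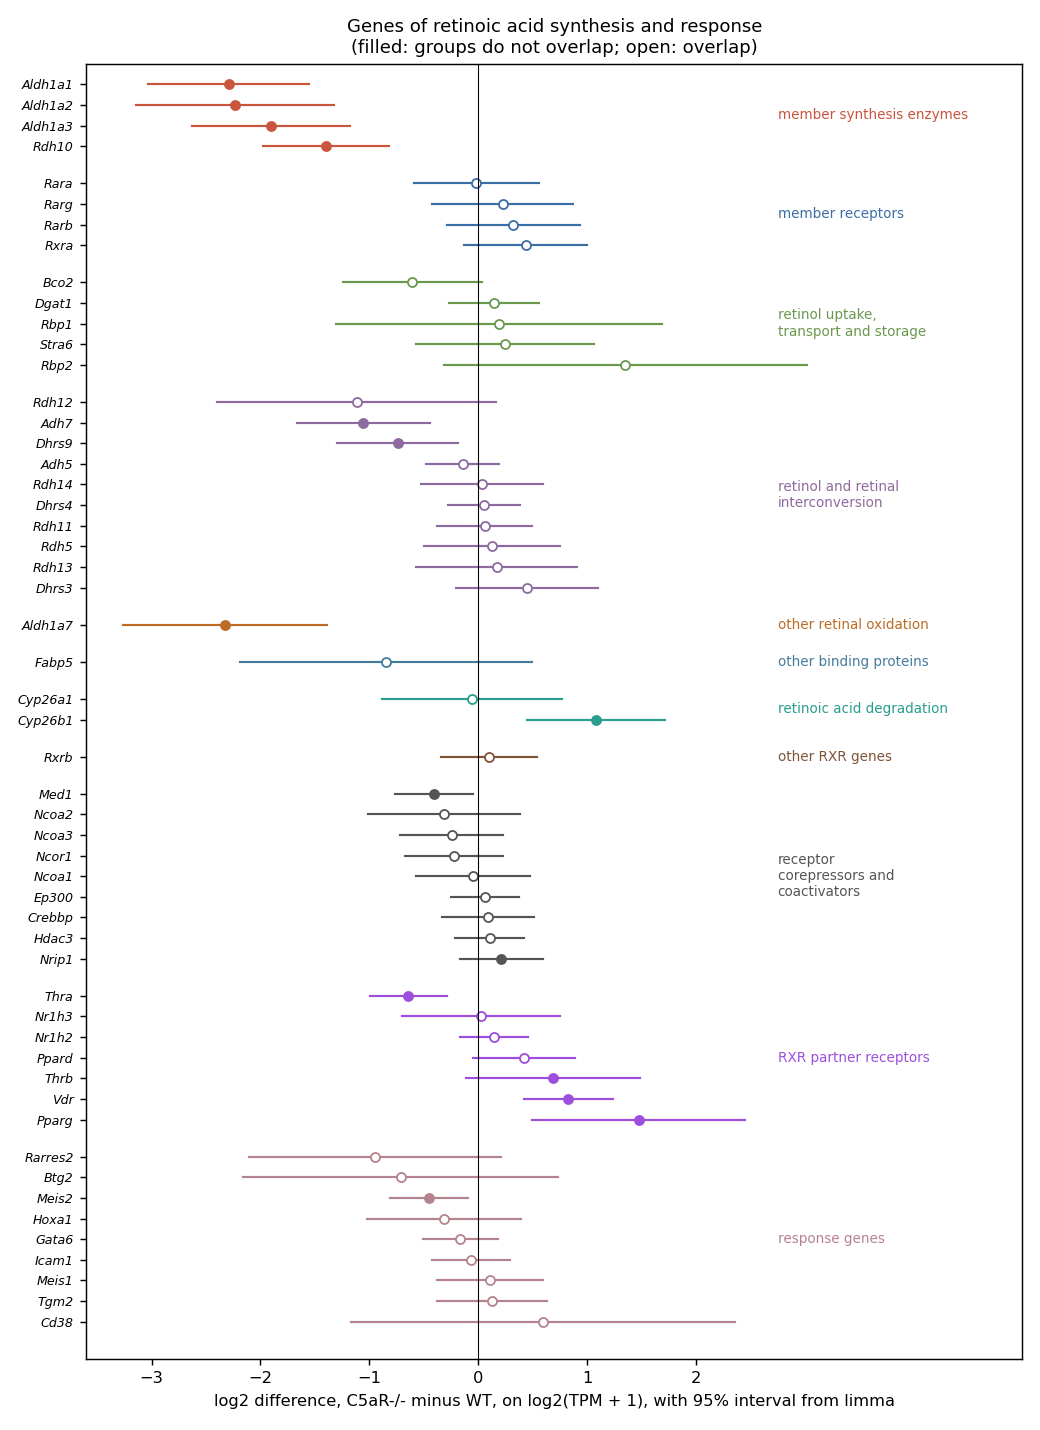
Log2 difference, C5aR-/- minus WT on log2(TPM + 1) (x axis), of tested genes of retinoic acid synthesis and response with the 95% interval from limma, grouped by role. Filled points mark genes whose groups do not overlap. The 4 synthesis enzymes and Aldh1a7 lie between -2.33 and -1.40, and the 4 receptors lie near 0 or slightly above it.

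Markers of other cell types also differed between the groups, and their values are given here beside the enzymes. Of 9 mesothelial markers, 8 had a negative and 1 a positive log2 difference, with a median of -0.99, and 5 were lower in C5aR-/- TAMs without overlap (beside 12.5% of all genes). Their summed level was 2113 to 2715 TPM in WT and 1213 to 2089 TPM in C5aR-/- TAMs, without overlap, and none was at 0. Muc16, a mucin gene of mesothelium, was at 142.01, 147.14 and 147.96 TPM in WT and 39.20, 36.58 and 10.15 TPM in C5aR-/- TAMs (log2 difference -2.52). Lrrn4, another mesothelial gene, was at 38.97, 48.06 and 38.01 TPM against 14.33, 11.90 and 5.59 TPM (log2 difference -1.96). The mesothelial genes did not move as one. Msln, which encodes mesothelin, was higher in each C5aR-/- library (log2 difference 0.88), and Wt1 overlapped between the groups at 338.31 to 451.34 TPM in WT and 331.22 to 394.53 TPM in C5aR-/- TAMs.

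As deviations from the WT mean of log2(TPM + 1), the medians of the 9 mesothelial markers were -0.73, -0.27 and -1.58 in C5aR-/- libraries 1, 2 and 3, and those of the 4 enzymes -2.01, -1.69 and -2.28. The enzyme median was below the mesothelial median in each C5aR-/- library, but single mesothelial markers spread widely around theirs. In C5aR-/- libraries 1, 2 and 3, Muc16 was at -1.867, -1.965 and -3.718 and Lrrn4 at -1.469, -1.718 and -2.687. Msln was at 0.81, 0.90 and 0.92. In the WT libraries the mesothelial median was highest in library 3, at 0.24, where the enzyme median was lowest, at -0.37. Aldh1a2 was at 0.17 in that library. The macrophage medians, 1.13, -0.19 and -0.87 in WT and 1.33, 0.58 and -0.61 in C5aR-/- TAMs, varied within both groups and did not separate them. The part of mesothelial RNA in the enzyme result was not tested, nor was the part of ID8 tumor cells in the mesothelial markers.

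**Figure D4:**
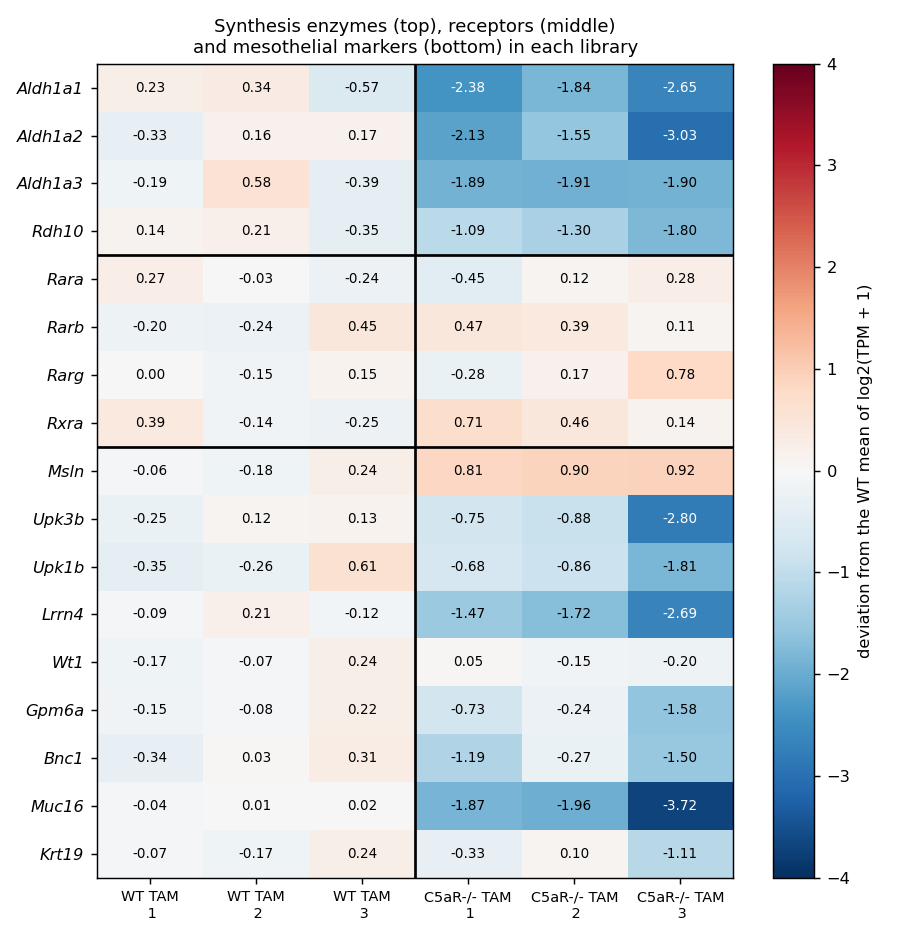
Deviation of each library from the WT mean of log2(TPM + 1) (color, blue lower and red higher, with the value printed) for the 4 synthesis enzymes, the 4 receptors and the 9 mesothelial markers, 1 column per library. The enzymes are blue in all 3 C5aR-/- columns, the receptors are mixed, and among the mesothelial markers Muc16 reaches -3.72 while Msln is positive in each C5aR-/- library.

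Other marker lists moved as well. Of 6 tested neutrophil markers, 6 had a negative log2 difference (beside 55.5% of all genes), and S100a8 and S100a9 were the 2 whose groups did not overlap (beside 12.5% lower). The summed level of that list was 629 to 2464 TPM in WT and 27.8 to 415 TPM in C5aR-/- TAMs. Ly6g, the gene of the antigen gated out, was at 0.62, 4.94 and 0.92 TPM in WT. It was at or below 0.56 TPM in each C5aR-/- library and listed at 0 in 2 of them. Its groups did not overlap, but it was too low to be tested. Of 6 tested mast cell markers, 5 were lower in C5aR-/- TAMs without overlap (beside 12.5% of all genes), and Mcpt4 was listed at 0 in 2 C5aR-/- libraries. Mcpt4 and Fcer1a reached 1 TPM only in the WT libraries, so the filter let them be tested only as lower. The sixth, Kit, a receptor gene also expressed by other cells, was higher without overlap, at 54.65, 67.99 and 85.38 TPM against 28.92, 33.06 and 29.75 TPM in WT (log2 difference 1.13). Kit made up most of the summed level of the mast cell list in C5aR-/- TAMs, 59.6 to 87.8 TPM, against 85.6 to 140 TPM in WT. Of 6 tested epithelial markers, 3 had a positive and 3 a negative log2 difference (summed level 977 to 1065 TPM against 1263 to 1569 TPM). Krt8 and Cldn3 were higher in each C5aR-/- library (beside 8.84% of all genes). The summed levels of the fibroblast, dendritic cell, eosinophil, T cell, B cell and endothelial lists overlapped between the groups, though single genes in them differed. The fibroblast gene Col1a2 (log2 difference -1.87) and the eosinophil gene Prg2 (-1.10) were lower without overlap (beside 12.5% of all genes). Negative log2 differences were found for 4 of 5 tested fibroblast, 2 of 6 dendritic cell, 2 of 2 eosinophil, 4 of 6 T cell, 5 of 6 B cell and 1 of 3 endothelial genes. The part of these cells in the enzyme values was not tested.

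The genes most like the enzymes in pattern were found by the Pearson correlation of log2(TPM + 1) over the 6 libraries, as a description without a test, among genes with a mean TPM of at least 5. For Aldh1a1 these were Sarnp (r = 0.992), Megf9 (0.991), Cdc42ep5 (0.99), U2surp (0.99) and Sin3b (0.989). For Rdh10 they were Pja2, Anxa4, Prelp, Slfn4 and Zfp961 (0.991 to 0.992), for Aldh1a2 Slfn1, Gm45889, Rnf41, Tmem98 and Ghitm (0.993 to 0.998), and for Aldh1a3 Vdac3, Akr1c14, Pde1a, Gm2044 and 2200002J24Rik (0.992 to 0.997). Rarg, whose groups overlapped, was most like Rasa1, Dmwd, Rsl24d1, Eipr1 and Pradc1 (0.993 to 0.998). Over these 6 points, r of at least 0.9 was reached by 316 of 11084 genes with Aldh1a1, 507 with Aldh1a2, 392 with Rdh10 and 344 with Rarg. A high value alone therefore does not set the named genes apart, with or without a group difference.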

How the data were processed

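Libraries of TAMs, 3 from WT and 3 from C5aR-/- mice, were compared. The values deposited by the authors are TPM per gene, made from poly(A) reads. The methods describe trimming with fastp, alignment with HISAT2 and estimation with StringTie, and name FPKM. The submitters' processing notes list RSEM, DESeq2 and the mm10 build, without versions. The authors' mean columns were not used. Tests for counts were not run, because TPM holds no read counts.

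Gene IDs were matched to symbols with GENCODE M21, and promoters are from RefSeq GRCm38.p6. Values were fitted as log2(TPM + 1) with limma 3.58.1 in R 4.3.3 (lmFit, eBayes with trend, Benjamini-Hochberg over the 14776 genes that reached 1 TPM in 3 or more libraries), after a test on simulated data. Calls were made at both thresholds the methods state, an adjusted and an unadjusted p under 0.05, each with a fold change of at least 2. Single genes also had a two-sided exact permutation test. Tables were handled with Python 3.11.15, pandas 2.3.3, numpy 2.4.6 and scipy 1.17.1, and coding sequences were aligned with Biopython 1.88.

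The members and lists were chosen with earlier results of these data known. Genes named are the 9 members, C5ar1, cell type markers, up to 5 pathway genes a list that passed a threshold or did not overlap, and the 5 genes most like the most abundant dehydrogenase, the most abundant receptor and each member called. The values of 1 pathway gene are not reported here. The alternatives left out each library in turn, changed the pseudocount to 0.1, raised the filter to 5 TPM or dropped it, scaled by quantiles or by median-of-ratios factors, dropped the trend, or added a block for the replicate number.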

Additional observations from a re-analysis of the deposited data

How the results depend on the processing

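The 4 enzymes kept their direction and passed the unadjusted threshold under every alternative that tested them, with log2 differences of -2.58 to -2.11 for Aldh1a1, -2.58 to -1.84 for Aldh1a2, -2.93 to -1.61 for Aldh1a3 and -1.57 to -1.19 for Rdh10, and limma adjusted p of 0.0341 to 0.414 over the 4. A filter at a TPM of at least 5 left Aldh1a3 untested, which moved the median of the tested members to -0.015 and lowered the number passing the unadjusted threshold to 475 of all genes and 1 of the other pathway genes. Without trend, 2 genes of all passed the adjusted threshold. Leaving out single libraries gave 0 to 356 genes of all past the adjusted and 567 to 1266 past the unadjusted threshold, 0 to 2 members and 0 to 1 other pathway genes (Rarres2) past the adjusted one, 3 to 8 other pathway genes past the unadjusted one, member medians of -0.85 to -0.60, and C5ar1 at -5.63 to -4.45. The highest counts were without C5aR-/- library 1, where C5ar1 (-5.16) also passed the adjusted threshold. The cause was not tested. The sign of genes near 0 depended on the setting. Cyp26a1 was at 0.022 with a pseudocount of 0.1, 0.052 with quantile normalization and -0.39 to 0.11 when single libraries were left out. Rara was at 0.021 with quantile normalization, 0.033 with median-of-ratios scaling and -0.16 to 0.20 without single libraries. Without single libraries Rarg ranged from -0.052 to 0.48, Stra6 from -0.041 to 0.57, Tgm2 from -0.0088 to 0.32 and Wt1 from -0.19 to 0.021. Higher and lower calls at the unadjusted threshold split 314 to 419, and 386 to 371 with quantile normalization. TPM holds no depth, so no counting error could be given for low genes such as Aldh1a3.

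Replicate numbers are shared by the groups, but nothing in the labels pairs them. Same-numbered libraries had correlations of their deviations of 0.19, -0.01 and 0.27, and different-numbered ones of -0.23 to 0.093. Libraries 1 and 3 correlated best with their own number, and library 2 of each group did not. The macrophage medians fell from library 1 to library 3 in both groups. Without a pairing in the labels the libraries were not treated as pairs in the main fit. Whether same-numbered libraries share an origin was not tested. With the replicate number as a block, 811 genes passed the unadjusted and 0 the adjusted threshold, the members' median stayed at -0.71, the 4 enzymes passed the unadjusted threshold (limma adjusted p 0.105 to 0.132), 5 other pathway genes did, Rdh12 being the added one, and Upk1b lost its call.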

Other observations

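Genes that depend on GATA6 in resident peritoneal macrophages were listed beside Gata6 itself, whose groups overlapped. Of these 13 genes, Gata6 included, 12 had a negative and 1 a positive log2 difference, C5aR-/- minus WT, with a median of -1.80. At the unadjusted threshold 5 were lower (Icam2, F10, Alox15, Serpinb2 and Prg4, beside 2.84% of all genes), and none passed the adjusted threshold. The groups did not overlap for 3 lower genes (Icam2, Serpinb2 and Prg4, beside 12.5% of all genes) and for 1 higher gene, Ltbp1 (log2 difference 0.35, beside 8.84%). Prg4, which encodes the lubricating protein proteoglycan 4, was at 776.63, 182.25 and 68.32 TPM in WT TAMs and at 18.29, 48.69 and 3.87 TPM in C5aR-/- TAMs, a log2 difference of -3.68 (SE 1.09, limma adjusted p 0.224). Serpinb2, a serine protease inhibitor gene, was at 107.92, 28.75 and 12.27 TPM against 3.41, 8.89 and 0.57 TPM (log2 difference -3.10, SE 0.92, limma adjusted p 0.224). Both spread widely within WT, with library 1 several times above the others. Leaving out WT library 1 moved the list's median to -0.94.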
